A study of Danio rerio with 24 samples.

Results

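The genes of the translation initiation factors were examined in the livers of male zebrafish (Danio rerio) of the AB wildtype strain. A gene of the Ensembl table was taken if its zebrafish symbol began with eif and a digit. Its mean count over the 24 libraries also had to be at least 10. For all genes taken the symbol was that of the RefSeq gene joined to them. Of 66 genes with such a symbol, 63 passed, out of 32105 genes listed and 11974 at the same minimum. They comprised 5 genes of class eif1, 14 of eif2, 16 of eif3, 23 of eif4, 4 of eif5 and eif6. Below the minimum were eif2ak2 with a mean count of 2.83, eif4e1b with 0.417 and eif3bb with 0.25, and the nearest gene above it was eif2b3 with 25.2. The low values of those 3 genes were not analysed further.

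The study asked whether a diet rich in the fatty acid arachidonic acid (ARA) changes liver transcripts in the fish that eat it (F0) and in their progeny (F1). There were 4 groups of 6 libraries, and each library was a pool of 6 male livers from the same tank. F0 control fish received a diet low in ARA and F0 high ARA fish a diet rich in ARA, both from 27 days post fertilization (DPF), were mated at 97 DPF and were sampled at 154 to 156 DPF. F1 control and F1 high ARA fish were the progeny of these F0 groups, all ate the control diet, and their livers were taken at 140 to 142 DPF. Generation and age therefore cannot be told apart, and F0 high ARA and F1 high ARA fish also differed in their own diet. No group carried a transgene or a mutation. Since whole livers were used, fewer cells of a type and less RNA per cell cannot be told apart.

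Initiation begins when eIF2, a GTP-binding factor of 3 subunits, brings the initiator tRNA to the small ribosomal subunit, where eIF1, eIF1A and the large scaffold eIF3 hold the complex ready for scanning. The cap-binding protein eIF4E, the helicase eIF4A and the scaffold eIF4G recruit the mRNA, eIF5 triggers GTP hydrolysis on eIF2 at the start codon, and eIF5B joins the large ribosomal subunit. The pathway is braked by kinases that phosphorylate eIF2 and so block its recycling by eIF2B, and by 4E-binding proteins that keep eIF4E from eIF4G when mTORC1 signalling is low. The liver, which makes most plasma proteins, is an organ of high protein synthesis.

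Total counts on Ensembl genes were 5144880 to 15659321 per library, and all F1 control libraries (5144880 to 8493413) were smaller than all F1 high ARA libraries (8636978 to 11800367). Between the F1 groups, sequencing depth and parental diet therefore cannot be told apart. All 15 hepatocyte markers listed were at the count minimum, and together they made up 174000 to 254000 counts per 1000000 (CPM, scaled by the trimmed mean of M-values, TMM), so that the labelled tissue was borne out by its defining genes. Testis markers were nearly lacking, with 1 of 14 at the minimum. Markers of pancreatic acinar cells summed to 689 to 8600 CPM and those of enterocytes to 5180 to 11100 CPM. The mean log2 CPM of the acinar list was 4.42 to 6.75 in F0 control, 6.29 to 7.38 in F0 high ARA, 4.96 to 8.13 in F1 control and 5.88 to 7.17 in F1 high ARA. For the enterocyte list it was 3.43 to 7.17 in F0 control, 3.57 to 6.58 in F0 high ARA and 3.89 to 6.39 in F1 control. In F1 high ARA it was 4.06 to 4.98, while the enterocyte sum there was 8000 to 11100 CPM. The enterocyte sum thus did not follow the mean of its list.

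The initiation factors covered a wide range of abundance. On the scale of CPM per kb of exon, eif5a, whose hypusine-modified product acts mainly in elongation, was highest at a mean of 535 over the 24 libraries, with 426 in the lowest and 632 in the highest library. The helicase gene eif4a1b followed at 260 CPM per kb. The 16 eIF3 subunit genes had a median of 118 CPM per kb, from 2.34 for eif3hb to 226 for eif3f, and the 4 eIF2 subunit genes a median of 116, from 28.3 for eif2s1a to 150 for eif2s3. The genes of eIF2 and of most eIF3 subunits were thus in the same range.

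**Figure D1:**
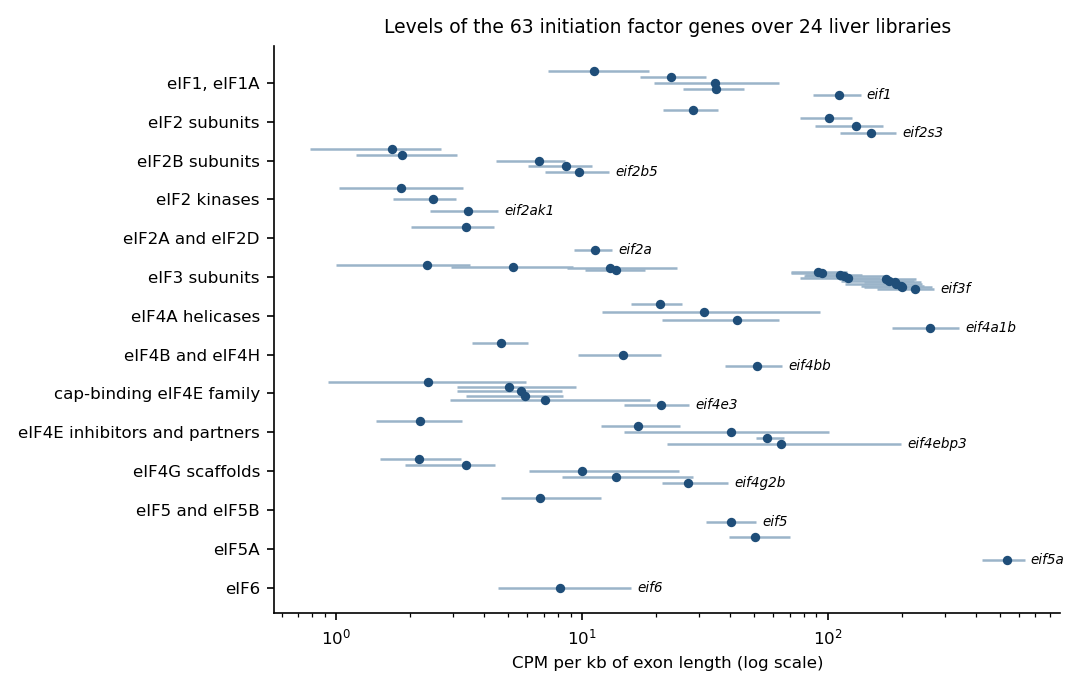
Mean level of each of the 63 initiation factor genes over the 24 libraries, in CPM per kb of exon on a log axis, with bars from the lowest to the highest library and genes grouped by role. Most eIF3 and eIF2 subunits lie near 100, eif5a is highest at 535, and the eIF2B subunits and eIF2 kinases lie mostly below 10.

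Genes of eIF2B, of the eIF2 kinases and of the eIF4E family had lower medians per kb. The 5 subunit genes of eIF2B, the exchange factor that reloads eIF2 with GTP, had a median of 6.69 CPM per kb (1.69 to 9.72), and the 3 measured eIF2 kinases, eif2ak1, eif2ak3 and eif2ak4, a median of 2.47 (1.83 to 3.45). The 6 genes of the cap-binding eIF4E family had a median of 5.75 CPM per kb (2.37 to 20.9), and the 5 genes of eIF4E inhibitors and partners a median of 40.4. Among the latter, eif4ebp3 had 64.8, eif4ebp2 56.8 and eif4ebp3l 40.4 CPM per kb. The 5 genes of class eif1 had a median of 34.8, led by eif1 with 111, and eif6, whose product keeps the large ribosomal subunit from joining too early, had 8.15 CPM per kb. Levels of gene pairs with similar sequence are uncertain, because reads that mapped to more than 1 place were not counted.

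The spread between libraries of a group also depended on the gene. The coefficient of variation within groups was lowest for eif4ebp2 (5.33%), eif2s2 (6.09%) and eif5a (8.16%), and highest for eif4a1a (51.4%), eif4ebp3 (46.3%), eif4e1c (40.4%) and eif4ebp3l (40.1%). Most eIF3 genes moved together from library to library. After the group means were taken off, all 16 had a median pairwise correlation of 0.78 (-0.36 to 0.98 over 120 pairs, 24 libraries). Their median with the other initiation factor genes was 0.09. For 12 of them the median within the set was 0.86 (0.66 to 0.98 over 66 pairs). These 12 were the eIF3 genes other than eif3ja, eif3jb, eif3hb and eif3eb, a choice made after their values were seen. Their higher correlation follows in part from that choice. The correlations are a description over points that share each library's depth and scaling. The eIF2 subunits had a median of 0.60 (0.28 to 0.89), whereas the eIF2B subunits had a median of -0.02 (-0.47 to 0.38) and the eIF4E family 0.11.

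In 3 libraries a set of the eif4 genes was high together. The gene eif4a1a, which encodes an eIF4A helicase (chromosome 7, 26239634 to 26246893, GRCz10, reverse strand), was at 281 CPM in F0 control replicate 10, at 209 CPM in F1 high ARA replicate 15 and at 258 CPM in F1 high ARA replicate 17, and at 36.6 to 118 CPM in the other 21 libraries. The cap-binding gene eif4e1c was at 28.7, 25.9 and 37.8 CPM in these libraries, against 5.80 to 19.2 CPM in the others. Likewise eif4g1a, eif4g2a, eif4ea, eif1axa and eif3jb were each higher in the 3 libraries than in any other. For eif4g2a, which encodes a relative of eIF4G that does not bind eIF4E, the values were 88.4, 69.3 and 114 CPM, against 27.8 to 55.2 CPM elsewhere. Exons of eif4a1a overlap those of another gene on the same strand, where reads that overlap both genes were left out.

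The libraries did not stand apart in every eif4 gene. For eif4ebp3 the value was 253 CPM in F1 high ARA replicate 15 and 307 CPM in replicate 17 but 50.3 CPM in F0 control replicate 10, within the 34.0 to 174 CPM of the others. The abundant copy eif4a1b was at 572, 572 and 415 CPM, against 449 to 777 CPM elsewhere, so that the libraries with the most eif4a1a were not those with the most eif4a1b. The first principal component of the deviations within groups over the 63 genes, led by eif4a1a and eif4e1c, took up 40.2% of their variance. Its scores were 2.66 in F0 control replicate 10 and 1.91 and 2.77 in F1 high ARA replicates 15 and 17. They were graded over the other libraries, from 1.22 in F1 control replicate 8 to -2.22 in F1 high ARA replicate 16 and -2.23 in F1 control replicate 12. The component thus did not set only these 3 libraries apart. The mean log2 CPM of the hepatocyte markers in these libraries was 12.68, 12.99 and 12.60, against 12.73 to 13.13 in the others, that of the enterocyte markers 4.34, 4.98 and 4.15, against 3.43 to 7.17, and that of the acinar markers 5.47, 6.44 and 5.88, against 4.42 to 8.13. Their part in the pattern was not tested. Results of F1 high ARA fish are given below also without replicates 15 and 17, an alternative chosen after seeing the data. These replicates were picked for their high values in the same genes. Without them, lower values of those genes in F1 high ARA follow in part from that choice. The alternative is therefore a description and not an independent check of the calls.

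**Figure D2:**
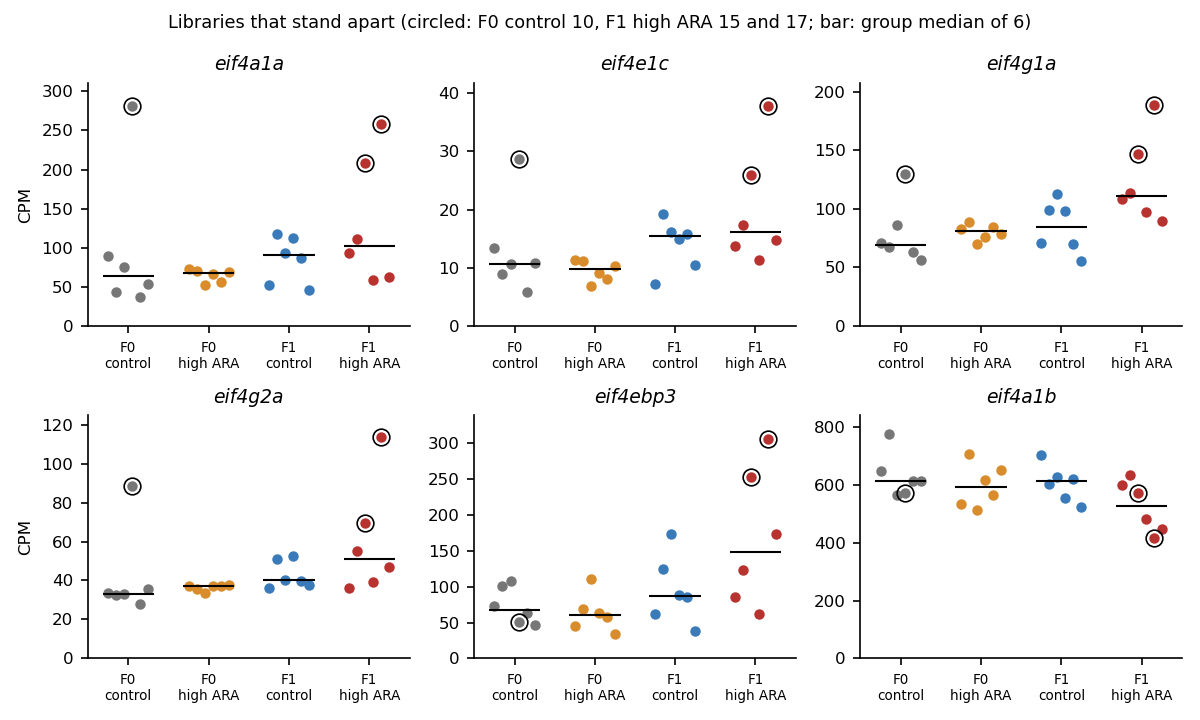
CPM of eif4 genes in each of the 24 libraries by group, with F0 control replicate 10 and F1 high ARA replicates 15 and 17 marked. In eif4a1a the marked libraries reach 209 to 281 CPM while the other 21 stay at or below 118 CPM.

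The 4 comparisons and their interaction were made with edgeR's quasi-likelihood test, with Benjamini-Hochberg adjustment over all genes tested, and a gene was called if its adjusted p was below 0.05 in the Ensembl and the RefSeq counts with the same sign. The comparisons share groups, so that a value in F1 control or F0 high ARA, for example, enters more than 1 of them. Fold changes are given on the log2 scale with their standard error (SE), and p-values of exact permutation tests are two-sided, with 0.00216 the smallest that 6 against 6 libraries allow. P-values measure the spread between tanks, since a library was a tank. In F1 these were tanks of progeny, and the labels do not say from which F0 tanks or crosses they came. Spread between the F0 parents is therefore not measured separately there.

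**Figure D3:**
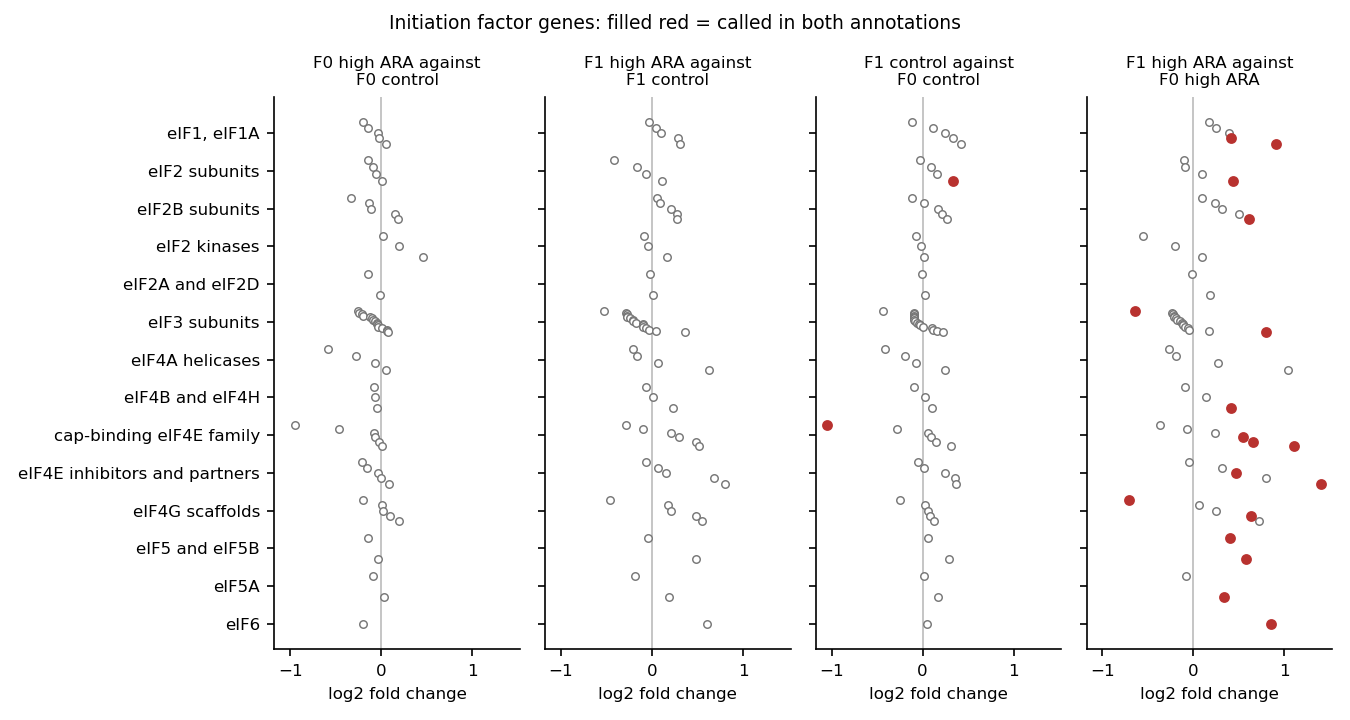
Log2 fold change of each of the 63 genes in the 4 comparisons, by role, with calls filled. No gene is called in the 2 diet comparisons, 2 are called in the control generation comparison and 18 in the high ARA generation comparison.

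The first comparison asked what the high ARA diet did in the fish that ate it (F0 high ARA against F0 control). None of the 63 genes was called, and of all 12194 genes tested 0 (0%) were called. At an unadjusted p below 0.05 there was 1 initiation factor gene, while 7.43% of all genes were at that level. This gene was eif4e2, which encodes a cap-binding protein that in mammals does not bind eIF4G and acts in translational repression (chromosome 2, 45263738 to 45282612, reverse strand).

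The level of eif4e2 was 5.21, 6.43 and 10.1 CPM (lowest, median and highest of 6) in F0 control and 2.26, 3.42 and 4.28 CPM in F0 high ARA. The groups did not overlap, which held for 1 of 63 initiation factor genes (1.59%) and for 0.505% of all genes. The log2 fold change was -0.95 ± 0.189 (SE, n = 6 per group) with an adjusted p of 0.36 by edgeR's quasi-likelihood test and an exact permutation p of 0.00216. DESeq2 called the gene, with an adjusted p of 0.0195, so that the call depended on the tool.

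The kinase gene eif2ak3, the endoplasmic reticulum stress sensor PERK, followed by p, with 4.53, 7.47 and 10.3 CPM in F0 control and 7.17, 10.1 and 14.4 CPM in F0 high ARA. Its log2 fold change was 0.46 (edgeR adjusted p = 0.672), and the groups overlapped. The third was eif3k, an eIF3 subunit, with a log2 fold change of -0.24 (adjusted p = 0.705). Over all 63 genes the median log2 fold change was -0.06, with 19 above 0 and 44 below, and it was -0.02 over all genes tested. The classes had medians of -0.03 to -0.07, apart from the single gene eif6 with -0.20. The acinar markers had a median log2 fold change of 0.47, with 17 of 17 above 0 and none called.

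The second comparison asked whether the progeny of both F0 groups differed while eating the same diet (F1 high ARA against F1 control). None of the 63 genes was called, beside 1.42% of all genes (166 of 11690). At an unadjusted p below 0.05 there were 13 of the 63, and 19.8% of all genes. No initiation factor gene had groups that did not overlap, beside 2.33% of all genes. The paper tested this comparison with DESeq2. EIF2 signalling was the most significant pathway it predicted as downregulated. Most genes listed for that pathway are ribosomal protein genes, which are not among the genes examined here. The initiation factors in that list are EIF2S1 and EIF4G3 (human symbols).

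The smallest p belonged to eif2s1b, a gene of the alpha subunit of eIF2, which carries the serine that the eIF2 kinases phosphorylate (chromosome 20, 51291147 to 51310045, forward strand). Its level was 173, 201 and 226 CPM in F1 control and 119, 153 and 177 CPM in F1 high ARA. The groups overlapped only between 173 and 177 CPM. The log2 fold change was -0.42 ± 0.108 (SE, n = 6), with an edgeR adjusted p of 0.0612 and an exact permutation p of 0.00433. DESeq2 (adjusted p = 0.0076) and an edgeR fit of all 24 libraries (adjusted p = 0.0179) called it, whereas without F1 high ARA replicates 15 and 17 the value was -0.33 (adjusted p = 0.203).

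Next was eif4g3a, a gene of the scaffold eIF4G3 (chromosome 11, 27581616 to 27670556, reverse strand), with 19.2, 22.7 and 25.2 CPM in F1 control and 13, 16.6 and 20.1 CPM in F1 high ARA. The log2 fold change was -0.46 ± 0.127 (SE), with an edgeR adjusted p of 0.0775 (0.034 by DESeq2, 0.0345 with all 24 libraries and 0.265 without replicates 15 and 17). The third was eif5b, the GTPase of subunit joining, with a log2 fold change of 0.48 ± 0.154 (edgeR adjusted p = 0.109). Its level was 20.4, 23.7 and 35.8 CPM in F1 control and 28.0, 33.8 and 47.0 CPM in F1 high ARA, and the groups overlapped through F1 control replicate 9.

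By class, values of the eIF3 genes were mostly below 0 in this comparison and those of the eif4 genes mostly above. Of the 16 eIF3 genes 2 were above 0, with a median log2 fold change of -0.19. Both of these, eif3ja (0.05) and eif3jb (0.36), had been left out of the 12 that moved together. That none of the 12 was above 0 thus follows from that choice. The 12 had a median of -0.21 and a smallest edgeR adjusted p of 0.19. The summed level of these 12 was 3054, 3828 and 4396 CPM in F1 control and 2655, 3418 and 4218 CPM in F1 high ARA, so that the groups overlapped widely. Class eif4 had a median of 0.18, with 16 of 23 above 0, and the 5 eIF2B subunits a median of 0.21, all above 0. Over the 63 genes the median was 0.01 and over all genes tested 0.00.

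These class values moved with the scaling and with the libraries used. Scaled by library totals, the median of all genes was 0.13, that of the 12 eIF3 genes -0.10 with 3 above 0, and that of class eif4 0.30 with 19 of 23 above 0. The calls over all genes were then 69.8% higher, against 50% with the main scaling. Without F1 high ARA replicates 15 and 17 the 12 eIF3 genes had a median of -0.12, none above 0, and class eif4 one of 0.04, with 14 of 23 above 0. The lower eif4 median follows in part from how these replicates were picked. The acinar markers had a median log2 fold change of -0.66, with 17 of 17 below 0 and none called, and the part of these cells in the values above was not tested.

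The third comparison set the generations of control fish against each other (F1 control against F0 control). Of the 63 genes 2 were called (3.17%), beside 1.73% of all genes (203 of 11729). The calls were eif4e2, lower in F1 as were 1.16% of all genes, and eif2s2, higher in F1 as were 0.571%, and for both the groups did not overlap, which held for 2.31% of all genes. Since F1 fish were younger, generation and age cannot be told apart here.

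For eif4e2 the levels were 5.21, 6.43 and 10.1 CPM in F0 control and 2.64, 3.20 and 4.16 CPM in F1 control. Its log2 fold change was -1.05 ± 0.184 (SE, n = 6 per group), a fold of 0.484, with an edgeR adjusted p of 0.0127 and an exact permutation p of 0.00216. F0 control was also the group that stood above F0 high ARA, and F1 high ARA had 1.58, 2.57 and 4.04 CPM, so that eif4e2 was high in F0 control and at lower, overlapping levels in the other 3 groups. The call held with each library left out in turn (log2 fold change -1.13 to -0.91, adjusted p up to 0.0373). With the acinar score in the fit it had a log2 fold change of -0.99 (adjusted p = 0.0704), so that the difference was about as large but was not called.

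The gene eif2s2 encodes the beta subunit of eIF2, which contacts eIF5 and eIF2B (chromosome 6, 49997128 to 50013273, forward strand). It had 101, 112 and 123 CPM in F0 control and 137, 138 and 157 CPM in F1 control. This was a log2 fold change of 0.33 ± 0.0815 (SE, n = 6 per group), a fold of 1.26, with an edgeR adjusted p of 0.0455. This call lay close to the threshold. It was lost whenever any library other than F0 control replicate 8 was left out (adjusted p up to 0.0911), and with the acinar score in the fit the log2 fold change was again 0.33, with an adjusted p of 0.137.

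The acinar markers had a median log2 fold change of 1.09 in this comparison, with 17 of 17 above 0 and none called. Of 11 enterocyte markers 10 were below 0, with a median of -0.4, and 1 was called, higher (9.09%, beside 1.73% of all genes). Of 13 macrophage and leukocyte markers 11 were below 0, with a median of -0.51 and none called. The third gene by p was eif4ebp1, an inhibitor of eIF4E, with a log2 fold change of 0.35 (edgeR adjusted p = 0.0916). The median over the 63 genes was 0.03, with -0.01 over all genes. Classes had medians of 0.24 for eif1, 0.02 for eif2, -0.07 for eif3, 0.06 for eif4 and 0.11 for eif5. Under library-total scaling the median of the 63 genes turned to -0.03, and those of eif2, eif4 and eif6 (0.05 with TMM scaling) turned to -0.03, -0.01 and -0.02.

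The fourth comparison set F1 high ARA against F0 high ARA fish, which differed in generation, age and their own diet. Of the 63 initiation factor genes 18 were called (28.6%), beside 15% of all genes (1824 of 12150). Higher in F1 were 16 of them, with 7.74% of all genes called higher, and lower were 2, with 7.28% of all genes called lower. The groups did not overlap for 12 of the 63 (19.0%) and for 7.17% of all genes. The calls fell to 2 of 5 genes in class eif1, 2 of 14 in eif2, 2 of 16 in eif3, 8 of 23 in eif4, 3 of 4 in eif5 and eif6 itself.

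Among factors of start site selection, eif1b rose (chromosome 24, 32603272 to 32608012, reverse strand). Its product is a close relative of eIF1, which guards the choice of the start codon. The level was 17.7, 21.8 and 29.6 CPM in F0 high ARA and 31.5, 41.4 and 57.0 CPM in F1 high ARA, without overlap. It differed by a log2 fold change of 0.91 ± 0.154 (SE, n = 6 per group), a fold of 1.87, with an edgeR adjusted p of 0.00216 and an exact permutation p of 0.00216. An eIF1A gene, eif1axb (chromosome 24, 24019053 to 24023359, reverse strand), rose by 0.41 on the log2 scale, from 57.6, 61.4 and 63.4 CPM to 68.9, 82.2 and 89.4 CPM. All 5 genes of class eif1 had values above 0, with a median of 0.39.

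Of the eIF2 subunits, eif2s2 rose. It had 99.7, 115 and 124 CPM in F0 high ARA and 148, 151 and 162 CPM in F1 high ARA, without overlap. The fitted difference was a log2 fold change of 0.44 ± 0.0836 (SE), a fold of 1.36, with an edgeR adjusted p of 0.0036 and an exact permutation p of 0.00216. The other subunit genes had log2 fold changes of -0.10 (eif2s1b), -0.09 (eif2s3, the GTP-binding gamma subunit) and 0.10 (eif2s1a) and were not called. Median levels of eif2s1b were 166 CPM in F0 high ARA, against 153 CPM in F1 high ARA, and those of eif2s3 312 and 310 CPM.

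**Figure D4:**
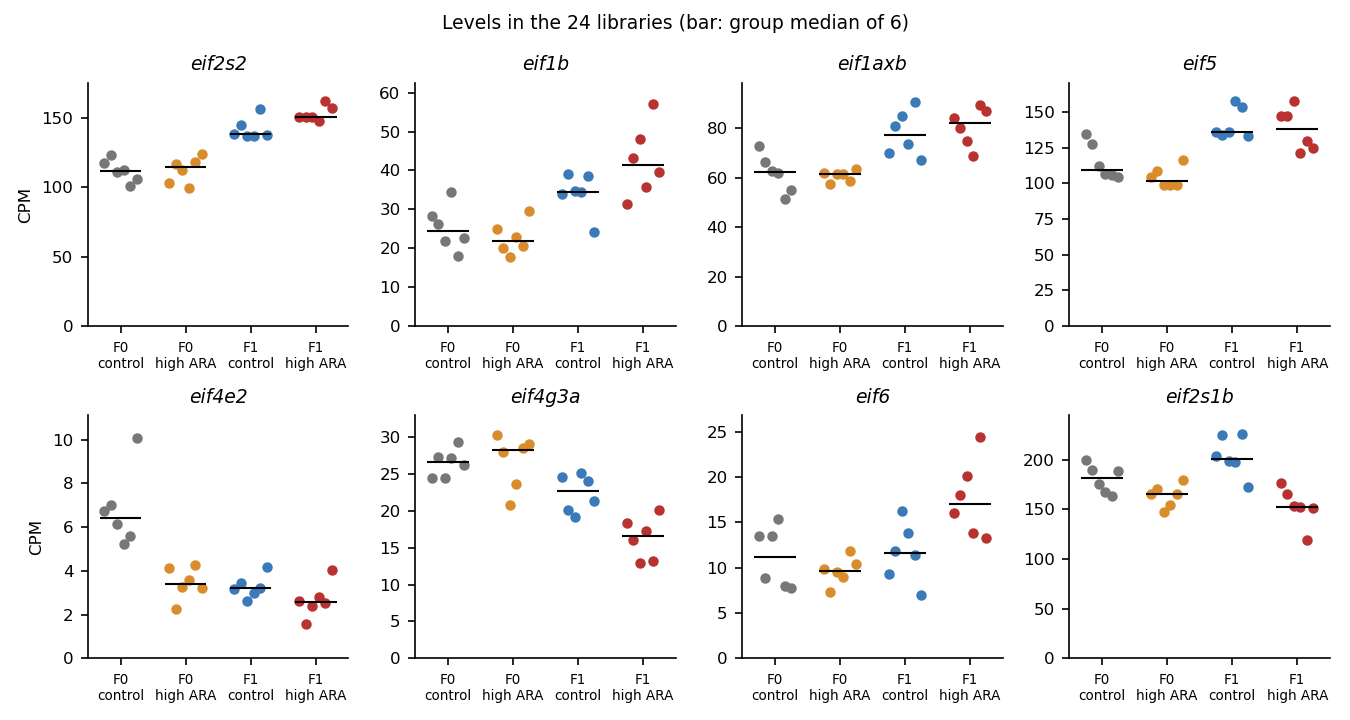
CPM of initiation factor genes in each of the 24 libraries, by group, with a line at each group's median. For eif2s2 all F1 libraries lie at or above 137 CPM and all F0 libraries at or below 124 CPM, and for eif4e2 F0 control lies above the other groups.

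All 5 eIF2B subunit genes had values above 0 with a median log2 fold change of 0.31, and of these eif2b1 was called, at 0.61 (edgeR adjusted p = 0.0248). Its exons overlap those of vps33a on the other strand, and as counts were taken without regard to strand, reads that overlap both genes were left out and its count rests on the other reads. The eIF2 kinases had a median of -0.20 and none was called. For eif2ak3 the log2 fold change was -0.55 (edgeR adjusted p = 0.0572).

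Of the 16 eIF3 genes 2 were called, 1 in each direction. They were eif3jb, a gene of the loosely bound j subunit (chromosome 7, 31154835 to 31160953, forward strand), and eif3hb, the lower of both genes of the h subunit (chromosome 19, 46265567 to 46369607, reverse strand). For eif3jb the level was 17.6, 20.5 and 21.0 CPM in F0 high ARA and 23.2, 31.1 and 49.2 CPM in F1 high ARA, without overlap, with a log2 fold change of 0.80 ± 0.167 (SE) and an edgeR adjusted p of 0.00629. For eif3hb it was 4.48, 5.78 and 6.91 CPM and 2.16, 3.6 and 4.65 CPM, and the log2 fold change was -0.64 ± 0.188 (SE). Above 0 were eif3jb and eif3ja (0.17), both left out of the 12 genes that moved together from library to library. By that choice the 12 all had values below 0. The median was -0.14 over all 16, and the smallest edgeR adjusted p among the 12 was 0.193. Their summed level was 3101, 3630 and 4508 CPM in F0 high ARA and 2655, 3418 and 4218 CPM in F1 high ARA.

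The scaffolds of eIF4F moved in both directions. The gene eif4g3a fell from 20.8, 28.2 and 30.3 CPM in F0 high ARA to 13, 16.6 and 20.1 CPM in F1 high ARA, without overlap. Its log2 fold change was -0.71 ± 0.128 (SE, n = 6 per group), a fold of 0.610, with an edgeR adjusted p of 0.00282 and an exact permutation p of 0.00216. In contrast, eif4g1a rose by 0.63 on the log2 scale, from 70.2, 80.7 and 88.6 CPM to 89.4, 111 and 189 CPM, where the highest value is that of replicate 17, and without replicates 15 and 17 the rise was 0.33 and not called. The helicase cofactor gene eif4h rose by 0.41, and its groups did not overlap. The helicase gene eif4a1a, with a log2 fold change of 1.04, was not called (edgeR adjusted p = 0.0571).

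Cap-binding genes and their inhibitors made up the other calls of class eif4. The gene eif4e1c rose by 1.1 on the log2 scale (edgeR adjusted p = 0.0178), from 6.83, 9.72 and 11.4 CPM to 11.4, 16.1 and 37.8 CPM, and by 0.58 without replicates 15 and 17. The called gene eif4e2rs1, at 0.54, shares exon positions with dlg4b on the same strand, where reads that overlap both genes were left out, and eif4ea rose by 0.65. The 4E-binding protein genes eif4ebp1 and eif4ebp3 rose by 0.47 and 1.40. For eif4ebp3 the level was 34.0, 60.3 and 111 CPM in F0 high ARA and 61.5, 149 and 307 CPM in F1 high ARA, and the groups overlapped.

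Both genes of late initiation rose. Levels of eif5, the GTPase-activating factor (chromosome 20, 18803168 to 18814366, forward strand), were 98.6, 102 and 116 CPM in F0 high ARA and 121, 138 and 158 CPM in F1 high ARA, without overlap (log2 fold change 0.40 ± 0.0948 SE, edgeR adjusted p = 0.0126). Levels of eif5b (chromosome 1, 45233554 to 45264031, forward strand) were 20.9, 22.5 and 27.0 CPM and 28.0, 33.8 and 47.0 CPM (0.58 ± 0.134 SE, adjusted p = 0.0113). The gene eif5a2 rose by 0.34, whereas eif5a, the most abundant member, had medians of 1210 and 1170 CPM and was not called. Levels of eif6 (chromosome 6, 52339549 to 52348652, reverse strand) were 7.29, 9.67 and 11.9 CPM in F0 high ARA and 13.3, 17 and 24.5 CPM in F1 high ARA, a log2 fold change of 0.85 ± 0.163 (SE) with an edgeR adjusted p of 0.00375. Its exons overlap those of esyt1b on the other strand, where reads that overlap both genes were left out, so that its count is uncertain.

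Without F1 high ARA replicates 15 and 17, 8 of the 63 genes were called, 7 higher and 1 lower, and all 8 were among the 18. These were eif1b (log2 fold change 0.71), eif1axb (0.38), eif2s2 (0.41), eif3jb (0.50), eif4e1c (0.58), eif4g3a (-0.59), eif4h (0.36) and eif6 (0.63). The value of eif3jb, among the genes highest in these libraries, thus fell from 0.80 to 0.50. Of all genes 6.86% were then called. Both replicates had been picked for high values in genes of this set, so that smaller rises follow in part from that choice. The values of eif4ebp3 and eif4ea were then 0.79 (edgeR adjusted p = 0.188) and 0.32 (0.286), while eif5 and eif5b lay just outside the threshold at adjusted p = 0.0508 and 0.0501. With each of the 12 libraries left out in turn, 12 to 21 genes were called. Of the 18, 12 kept their call each time, and eif2b1, eif3hb, eif4ea, eif4ebp1, eif4ebp3 and eif5a2 lost it with 6 to 9 of the libraries, F1 high ARA replicate 15 among them for each.

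Beside these values stand those of markers of other cells. Of 10 enterocyte markers tested 3 were called lower and 2 higher, beside the 15% of all genes, with a median log2 fold change of -0.90, and their score was 3.57 to 6.58 in F0 high ARA and 4.06 to 4.98 in F1 high ARA. Of 13 macrophage and leukocyte markers 12 had values below 0, with a median of -0.57, and 1 was called (7.69%), a share below that of all genes. Medians of both lists were below 0 also in F1 control against F0 control (-0.4 and -0.51). In F1 high ARA against F0 high ARA without replicates 15 and 17 they were -0.96 and -0.51, and no gene of these lists was called. With the enterocyte score in the fit 10 of the initiation factor genes were called, all among the 18. The share of all genes called in that fit is not given here. The fall from 18 to 10 is therefore not shown to be particular to the initiation factor genes. In all, 6 of the 18 kept their call with every library left out, without replicates 15 and 17 together and with the enterocyte score, namely eif1b, eif1axb, eif2s2, eif3jb, eif4g3a and eif6.

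The medians of this comparison were 0.14 over the 63 genes, with 36 above 0, and 0.00 over all genes. By class they were 0.39 for eif1, 0.10 for eif2, -0.14 for eif3, 0.27 for eif4 and 0.37 for eif5. The eif2s2 gene was the only initiation factor gene called in both generation comparisons, with log2 fold changes of 0.33 in control and 0.44 in high ARA fish. The gene eif4e2, called in control fish, had medians of 3.42 CPM in F0 high ARA, against 2.57 CPM in F1 high ARA and was not called there.

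Whether the generation difference depended on the diet of the F0 fish was tested as an interaction over the 24 libraries. None of the 63 genes was called, beside 0.1% of all genes (12 of 11974), and DESeq2 called none either. At an unadjusted p below 0.05 there were 10 of the 63 and 12.9% of all genes. The smallest p-values were those of eif4g3a (interaction -0.47 ± 0.16 SE on the log2 scale, edgeR adjusted p = 0.234), eif6 (0.80, adjusted p = 0.249) and eif4e2 (0.67, adjusted p = 0.323). A gene called among high ARA fish and not among control fish is therefore not shown to differ between them.

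Several factors are encoded by gene copies or close relatives, and the share of a copy in the reads of both is a measure within each library that does not depend on library scaling. Over 13 such pairs the groups' shares did not overlap for 1 pair in the F1 diet comparison and for 1 in the high ARA generation comparison, and for none in the other comparisons. Levels of single genes did not overlap for 2.33% and 7.17% of all genes in these comparisons, and shares of other gene pairs were not taken. With 13 pairs, 1 without overlap is not set apart from such a background. The shares of copies were looked at after the levels were known and were not tested.

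For the alpha subunit of eIF2, the share of eif2s1a was 15.8, 18.3 and 19.4% in F1 control and 20.4, 22.4 and 23.9% in F1 high ARA, without overlap. It was 16.7, 19.3 and 20.6% in F0 control and 17.6, 19.3 and 22.7% in F0 high ARA. The fitted values of eif2s1a were small in the same comparison (medians of 47.0 and 44.0 CPM), so that the share moved with the lower level of eif2s1b in F1 high ARA.

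For eif1b, the share in the reads of eif1 and eif1b was 10.1, 11.8 and 14.6% in F0 high ARA and 14.8, 18.9 and 21.8% in F1 high ARA, also without overlap. It was 11.3, 13.3 and 15.6% in F0 control and 12.1, 15.7 and 16.6% in F1 control. The share of eif4g3a in the reads of eif4g3a and eif4g3b was 57.1, 68.5 and 74.6% in F0 high ARA and 40.4, 52.4 and 61.3% in F1 high ARA, with 67.3, 68.7 and 70.8% in F0 control and 60.0, 62.2 and 70.1% in F1 control. F1 high ARA thus had the lowest median share of eif4g3a.

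The share of eif4a1a in the reads of both eif4a1 genes was 5.34, 9.91 and 32.9% in F0 control, 9, 9.35 and 11.9% in F0 high ARA, 6.88, 12.7 and 16.9% in F1 control and 10.8, 14.2 and 38.3% in F1 high ARA. The highest values belong to the libraries named above, in which the minor copy took a larger part of the eif4a1 reads.

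**Figure D5:**
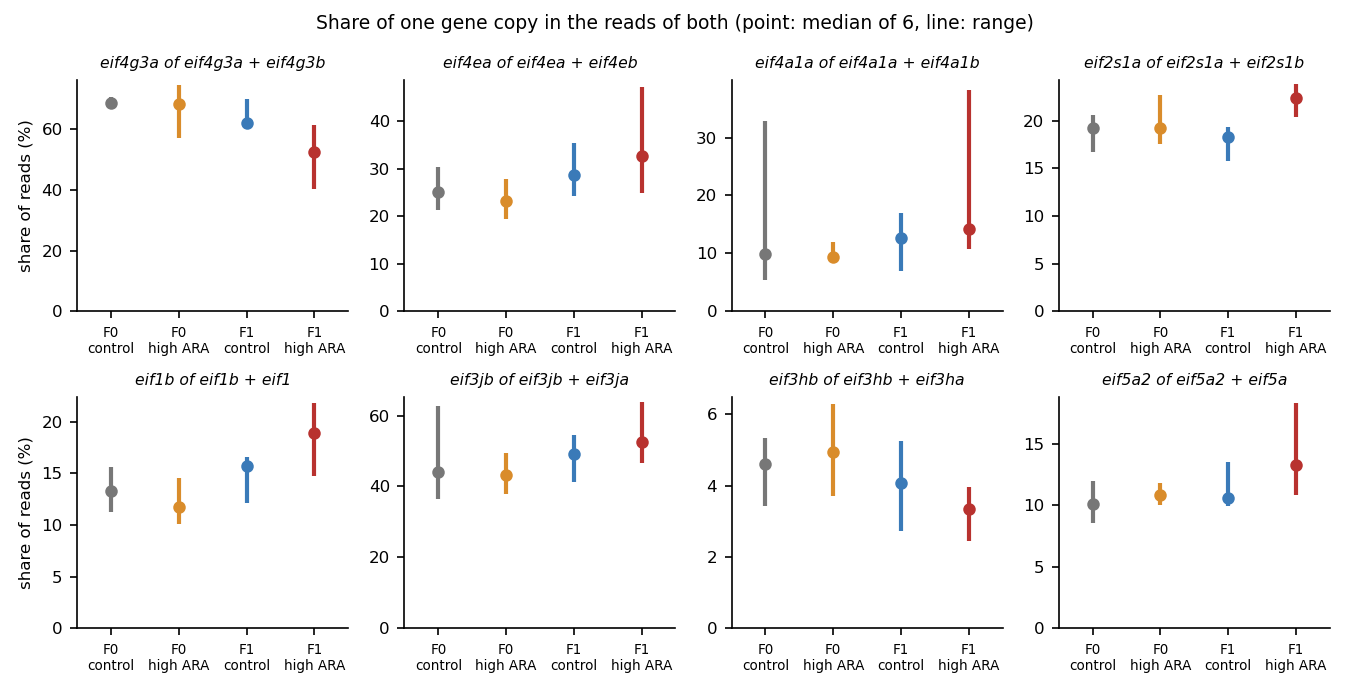
Share of the named copy in the summed reads of a gene pair, in percent, by group, with a point at each group's median and a line from its lowest to its highest library. The share of eif2s1a is 20.4 to 23.9% in F1 high ARA and 15.8 to 19.4% in F1 control, and that of eif4g3a has its lowest median, 52.4%, in F1 high ARA.

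Neighbouring steps of the pathway were read from lists of genes. In both diet comparisons no gene of these lists was called by edgeR's quasi-likelihood test, while at an unadjusted p below 0.05 there were 0 to 1 gene per list in F0 (7.43% of all genes). In F1 there were 6 of 15 elongation, 4 of 13 poly(A) and cap partner, 4 of 15 stress response, 4 of 19 mTORC1 and 10 of 21 synthetase genes (19.8% of all genes). In F1 high ARA against F1 control, 18 of 21 cytosolic aminoacyl-tRNA synthetase genes had values above 0 (median log2 fold change 0.34), as did 12 of 15 genes of eIF2 phosphorylation and the integrated stress response (median 0.39), beside a median of 0.00 over all genes. Without replicates 15 and 17 these were 18 of 21 (median 0.29) and 11 of 15 (median 0.17). The stress response list had a median score of 4.84 in F0 control, 4.86 in F0 high ARA, 4.53 in F1 control and 4.85 in F1 high ARA. F1 control was thus the low group, and F1 high ARA was near both F0 groups. For the synthetase list the medians were 5.02, 5.01, 5.12 and 5.35 in the same order. The mean log2 CPM of the stress response list was 5.29 in replicate 15 and 4.93 in replicate 17, against 4.42 to 5.06 in the 21 libraries that did not stand apart, and that of the synthetase list 5.35 and 5.53, against 4.68 to 5.47. In F1 control against F0 control, the cap-binding complex gene ncbp2 rose by 0.74 (edgeR adjusted p = 0.0188) and trib3, a target of ATF4 signalling, fell by 1.34 (adjusted p = 0.0292).

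In F1 high ARA against F0 high ARA, 6 of 21 aminoacyl-tRNA synthetase genes were called, all higher (28.6%, median 0.35), beside 15% of all genes called and 7.74% called higher. The synthetases qars1 and mars1, which charge the tRNAs of glutamine and methionine, rose by 1.34 and 1.18, and lars1b and cars1, those of leucine and cysteine, by 0.67 and 0.83. Without replicates 15 and 17 these 4 were still called, and the median was 0.27. Of 15 elongation and termination genes 3 rose and 1 fell (26.7%), with a median of 0.18. The elongation factor kinase gene eef2k rose by 0.87, the release factor gene etf1b by 0.83 and the ribosome recycling gene abce1 by 0.61, and eef1db fell by 0.36. Without replicates 15 and 17 the list's median was -0.01, and eef2k (0.71) and etf1b (0.49) were called.

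Among 13 poly(A) and cap partners of eIF4F, 2 rose and 3 fell in this comparison (38.5%, beside 15% of all genes). The kinase gene mknk2b, whose product phosphorylates eIF4E, fell by 1.16, the poly(A)-binding protein gene pabpc1b by 0.93 and the eIF4A inhibitor gene pdcd4b by 0.68, and ncbp2 rose by 0.78. Of 16 genes on the integrated stress response list, asns, the asparagine synthetase, rose by 0.65 and trib3 fell by 0.92. Also called was xiap, which rose by 0.52 (18.8% of the list with these). The paper's pathway analysis places xiap under EIF2 signalling, but for F1 high ARA against F1 control. Of 19 genes of mTORC1 and S6 kinase, tsc2, a brake on mTORC1, fell by 0.42 and rragca, a Rag GTPase, rose by 0.41 (10.5%). The shares called in the stress response and mTORC1 lists were near or below the 15% of all genes. Without replicates 15 and 17, mknk2b, pabpc1b and paip1 of the poly(A) and cap partners and trib3 were called, and none of the mTORC1 list. The medians of the last 3 lists were 0.06, 0.03 and -0.07, close to the 0.00 of all genes.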

How the data were processed

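Liver RNA of 24 libraries (4 groups of 6, each a pool of 6 livers) was sequenced by the authors as single-end reads from stranded mRNA libraries. The authors mapped the untrimmed reads to GRCz10 with HISAT2 and deposited raw counts per gene from featureCounts 1.5.0-p3, for Ensembl release 85 and for RefSeq, without a strand option and without reads that mapped to or overlapped several features. Both tables hold 36 count columns, of which 12 were not used here.

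Groups were taken from the labels. Each comparison was fitted with edgeR 4.0.16 (quasi-likelihood F test, TMM scaling, robust dispersion, R 4.3.3) on its own 12 libraries, and the interaction on 24, keeping genes whose mean count reached 10. Adjustment was over all genes. Ensembl and RefSeq genes were joined by exon overlap on the same strand (24792 genes) or else by a shared symbol (96 genes). In all, 24888 of 32105 genes were paired. The SE was the log2 fold change divided by the square root of F. Permutation tests used log2(CPM + 0.5). Scores of marker lists are means of log2 CPM. The fit was tested on simulated data. No 2 libraries agreed within sampling noise. Alternatives were DESeq2 1.42.0, other scalings, filters, samples, marker scores, the replicate number as a block and libraries left out.

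Members and lists were chosen with earlier results of these data known. Genes named with their tests were those called, the 3 smallest p per comparison, the eIF2 subunits, the most abundant of each class and those next to the count minimum. Others (such as eif4a1a, eif4g2a, eif1axa, eif4ebp2, eif4ebp3l, eif2ak1, eif2ak4) were named after their values were seen, to describe levels and libraries. In lists, at most 4 called genes were named.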

Additional observations from a re-analysis of the deposited data

Results flagged for a closer look

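In 14 of 252 sets of 6 libraries (63 genes in 4 groups), 1 library lay far from the others of its group by Dixon's test. Chance gives about 1 in 20, so that the number of flags was near that of chance, and they are listed as a description. Of these, 5 were in F0 control replicate 10, a library with high eif4a1a. There eif4a1a was at 281 CPM against 36.6 to 90 CPM in the other 5 libraries of F0 control, eif4g2a at 88.4 CPM against 27.8 to 35.8 CPM, eif4g2b at 156 CPM against 89.5 to 104 CPM, eif4e1c at 28.7 CPM against 5.80 to 13.3 CPM and eif2b1 at 7.13 CPM against 4.74 to 5.57 CPM. In F1 control replicate 12, eif1b was at 24.2 CPM against 33.9 to 39.0 CPM, eif2ak3 at 11 CPM against 5.67 to 7.55 CPM and eif4ebp2 at 188 CPM against 155 to 163 CPM. In F1 control replicate 9, eif5b was at 35.8 CPM against 20.4 to 24.9 CPM, and in replicate 11, eif3eb was at 17.2 CPM against 6.15 to 10.1 CPM. In F0 control replicate 8, eif2ak4 was at 16.3 CPM against 11.1 to 12.8 CPM, and in F0 high ARA replicate 16, eif2a was at 22.5 CPM against 20.4 to 21.1 CPM. For eif4e2rs1, F0 high ARA replicate 18 was low at 4.25 CPM against 6.36 to 7.22 CPM, and F1 high ARA replicate 17 high at 10.6 CPM against 8.52 to 9.26 CPM.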

How the results depend on the processing

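The numbers of initiation factor genes called depended on the tool and the covariates where genes lay near the threshold. In the F0 diet comparison DESeq2 called 1 (eif4e2), and in the F1 diet comparison DESeq2 and the fit of all 24 libraries called 2 each (eif2s1b and eif4g3a). In the control generation comparison 1 was called with DESeq2's size factors (RLE), with library totals, without the count filter and with the enterocyte score, 0 with the acinar score, and 3 with DESeq2 and with all 24 libraries. In the high ARA generation comparison 10 were called with the enterocyte score 8 without F1 high ARA replicates 15 and 17, 22 with DESeq2, 20 with all 24 libraries and 15 to 18 with other filters, scalings and the acinar score. When libraries were left out singly, the counts were 0 in the F0 diet, 0 to 1 in the F1 diet, 1 to 2 in the control generation and 12 to 21 in the high ARA generation comparison, and 0 for the interaction. The labels do not say whether same-numbered libraries of F0 and F1 were related, and the main fits did not pair them. Same-numbered libraries had correlations of -0.363 to 0.269, and 2 of 12 correlated best with their own number. Such values cannot decide whether the tanks were related. With the replicate block 1 gene was called in the control generation and 14 in the high ARA generation comparison. Shares of all genes called are not set beside the counts of these alternative fits, left-out libraries included. The counts thus do not show a change particular to the initiation factor genes. Beside the fits of left-out libraries, single named genes kept direction and call in 302 cases, lost the call in 38 and gained it in 5, and none changed sign when called. Library-total scaling moved the median of all genes to 0.13 in the F1 diet comparison and to 0.12 for the interaction. The causes of these changes were not tested. Total counts limit genes near the minimum, such as eif4e2 at a few CPM.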

Other observations

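The RefSeq table lists an eIF4G gene, eif4g1b, which had no partner in the Ensembl table by exon position, may be listed there under another name, and was singled out after its values were seen. Its level was 11.4, 16.1 and 19.1 CPM (lowest, median and highest of 6) in F0 high ARA and 2.31, 3.31 and 4.73 CPM in F1 high ARA, without overlap. In F0 control it was 2.17, 6.27 and 11.4 CPM and in F1 control 1.28, 2.91 and 3.48 CPM. The log2 fold change between F1 and F0 high ARA was -2.19 ± 0.186 (SE, n = 6 per group), with an adjusted p of 2.51e-05 by edgeR's quasi-likelihood test on the RefSeq counts, the second smallest of 12436 genes. Between F0 high ARA and F0 control it was 1.42, with an adjusted p of 0.339, and did not pass the test.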
